A study of Mus musculus with 6 samples.

Results

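Ahr encodes the aryl hydrocarbon receptor, a transcription factor of the basic helix-loop-helix PAS family that is activated by binding small molecules such as dioxins, combustion products, and tryptophan and dietary metabolites. In the cytosol the receptor is held by a chaperone complex. After binding a ligand it enters the nucleus, pairs with the protein encoded by Arnt and binds xenobiotic response elements (XREs) in the DNA of its target genes. Cyp1a1, Cyp1b1, Tiparp, Nqo1 and the repressor gene Ahrr are classical targets, and the products of Ahrr and Tiparp dampen the receptor in return. In fat, activation of the receptor by dioxin is known to block adipocyte differentiation in culture.

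The genes described are Ahr, Arnt, Ahrr, Cyp1a1, Cyp1b1, Tiparp and Nqo1, 7 of the 22040 genes in the expression table. Ahr was chosen by its measured level, which had been seen higher with Rb1 in these same samples, so its values are given as a description with no test. The other 6 were added for their roles. All 7 had reads in every sample and passed the filter on low counts. RNA was sequenced from mouse white adipose tissue of 3 samples from mice given ginsenoside Rb1, a ginseng saponin, by intraperitoneal injection at 14 mg/kg per day, and of 3 control samples from mice given saline by the same route. Mice of both groups were kept on a 12-h light/dark cycle. The labels name no genotype, strain, age, fat depot, diet or treatment length.

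Library totals ran from 15440339 to 24501446 per Rb1 sample and 19125095 to 23509621 per control sample. All 10 mature adipocyte markers, Adipoq, Plin1, Lep and Cidec among them, had reads in all 6 samples. Their summed level was 24297 to 30865 CPM (counts brought to a common library size) in Rb1 samples and 25082 to 28743 CPM in control samples. Control replicate 2 stood apart through skeletal muscle transcripts, whose 10 markers summed to 26649 CPM there, against 35.4 to 156 CPM in Rb1 samples and 329 and 372 CPM in the other controls. Every Rb1 sum thus lay below every control sum. Of the 10 markers 8 had all Rb1 values below all control values, beside 10.5% of all tested genes. The part of muscle content in the levels of Ahr and its targets was not tested. In a test over all genes 1 of 14093 passed, so 0.0071% of genes were called, and it is not among the 6 genes other than Ahr.

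As a description of the DNA next to these genes, the 250 bases before the RefSeq start site (GRCm38.p6) were searched for the XRE core GCGTG on both strands. Of the 7 genes, 6 had an entry in the RefSeq promoter table, and Ahr did not. The core was found in 5 of the 6, and Nqo1 had no match. It also occurs in 28.2% of all 32841 promoter windows of this length. Ahrr had 3 matches, and 2.77% of all windows had at least 3. The longer form TNGCGTG occurred once in Ahrr, overlapping 1 of those cores, and in 4.1% of windows. The windows of Ahrr, Cyp1b1 and Tiparp are shown because those were the genes, beside Ahr, whose FPKM values did not overlap between groups. Each runs 5′ to 3′ on the strand of its gene and stops before the first annotated exon, and capitals mark the core or its complement CACGC.
Ahrr, chr13:74292332-74292581, minus strand: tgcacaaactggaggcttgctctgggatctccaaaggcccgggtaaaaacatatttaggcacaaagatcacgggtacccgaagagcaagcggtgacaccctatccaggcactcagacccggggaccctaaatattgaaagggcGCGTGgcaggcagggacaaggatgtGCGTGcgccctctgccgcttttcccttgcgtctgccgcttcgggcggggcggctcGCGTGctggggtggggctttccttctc
Cyp1b1, chr17:79715062-79715311, minus strand: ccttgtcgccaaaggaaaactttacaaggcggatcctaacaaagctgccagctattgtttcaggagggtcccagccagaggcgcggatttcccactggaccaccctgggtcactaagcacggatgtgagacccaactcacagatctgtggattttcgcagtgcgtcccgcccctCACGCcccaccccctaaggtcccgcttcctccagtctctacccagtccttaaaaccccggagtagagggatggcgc
Tiparp, chr3:65528197-65528409, plus strand: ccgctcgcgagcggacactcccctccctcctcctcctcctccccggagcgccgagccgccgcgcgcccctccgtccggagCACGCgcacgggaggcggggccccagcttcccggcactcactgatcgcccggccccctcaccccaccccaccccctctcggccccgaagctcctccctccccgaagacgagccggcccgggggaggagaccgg
In Ahrr the cores began 107, 82 and 27 bases before the start site, all on the gene's own strand. In Cyp1b1 the match lay 76 to 72 bases before the start and in Tiparp 170 to 166 bases before it, both as CACGC. Arnt and Cyp1a1 each had 1 core. The Tiparp stretch shown has 213 bases and ends short of the start site from which its match is counted. The full windows of 250 bases were GC-rich, with 60.4% in Ahrr, 58.0% in Cyp1b1 and 75.2% in Tiparp, against a median of 52.4% over all windows. The well-studied Cyp1a1 enhancer lies farther upstream than this window. A match is a description of the letters and not a measured binding site.

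Ahr, the receptor itself (ENSMUSG00000019256), lies on chromosome 12 from 35497974 to 35535038 on the minus strand of GRCm38. Its FPKM, the authors' count scaled by gene length and by the library total, was 4.16, 3.355 and 3.99 in Rb1 replicates 1, 2 and 3, and 2.61, 2.38 and 2.04 in control replicates 1, 2 and 3. Every Rb1 value lay above every control value, which held for 5.48% of all tested genes, and this is the difference for which the gene was chosen. The means were 3.84 ± 0.426 FPKM with Rb1 and 2.35 ± 0.286 FPKM in controls (SD, n = 3 each), a 1.64-fold difference and a log2 fold change of 0.75. The value was 0.77 without control replicate 2 and lay between 0.68 and 0.82 when any 1 sample was left out. In bulk tissue, a different number of cells of a type and a different amount of RNA per cell cannot be told apart, here and for every gene that follows. The exons of Ahr share 127 of 6163 bases with Gm48236, a long noncoding RNA gene on the opposite strand, and no source used here says whether counting used strand.

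Arnt (ENSMUSG00000015522, chromosome 3, 95434388 to 95497240, plus strand), the obligate partner of the receptor and also of the hypoxia-inducible factors, had almost the same level in all 6 samples. Its FPKM was 5.50, 5.02 and 4.61 in Rb1 samples and 5.06, 4.56 and 4.88 in control samples, so the groups overlapped and the highest sample exceeded the lowest only 1.21-fold. The log2 fold change was 0.10, with a 95% interval of -0.10 to 0.31, and did not pass (edgeR quasi-likelihood test, adjusted p = 0.719). The ratio of Ahr to Arnt FPKM was 0.757, 0.669 and 0.866 in Rb1 samples and 0.516, 0.521 and 0.419 in control samples. The authors' lengths that these values imply, 6545 bases for Ahr and 13171 for Arnt, differ from the annotated exon lengths of 6163 and 8007 bases. On the exon lengths, an alternative chosen after seeing the data, the ratio was 0.489, 0.432 and 0.559 in Rb1 samples and 0.333, 0.337 and 0.271 in control samples. Receptor transcripts were below partner transcripts in every sample on both lengths, while the size of the ratio depends on the length used. Arnt was nearly level and Ahr was chosen for its group difference, so the group difference in the ratio restates that choice.

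**Figure D1:**
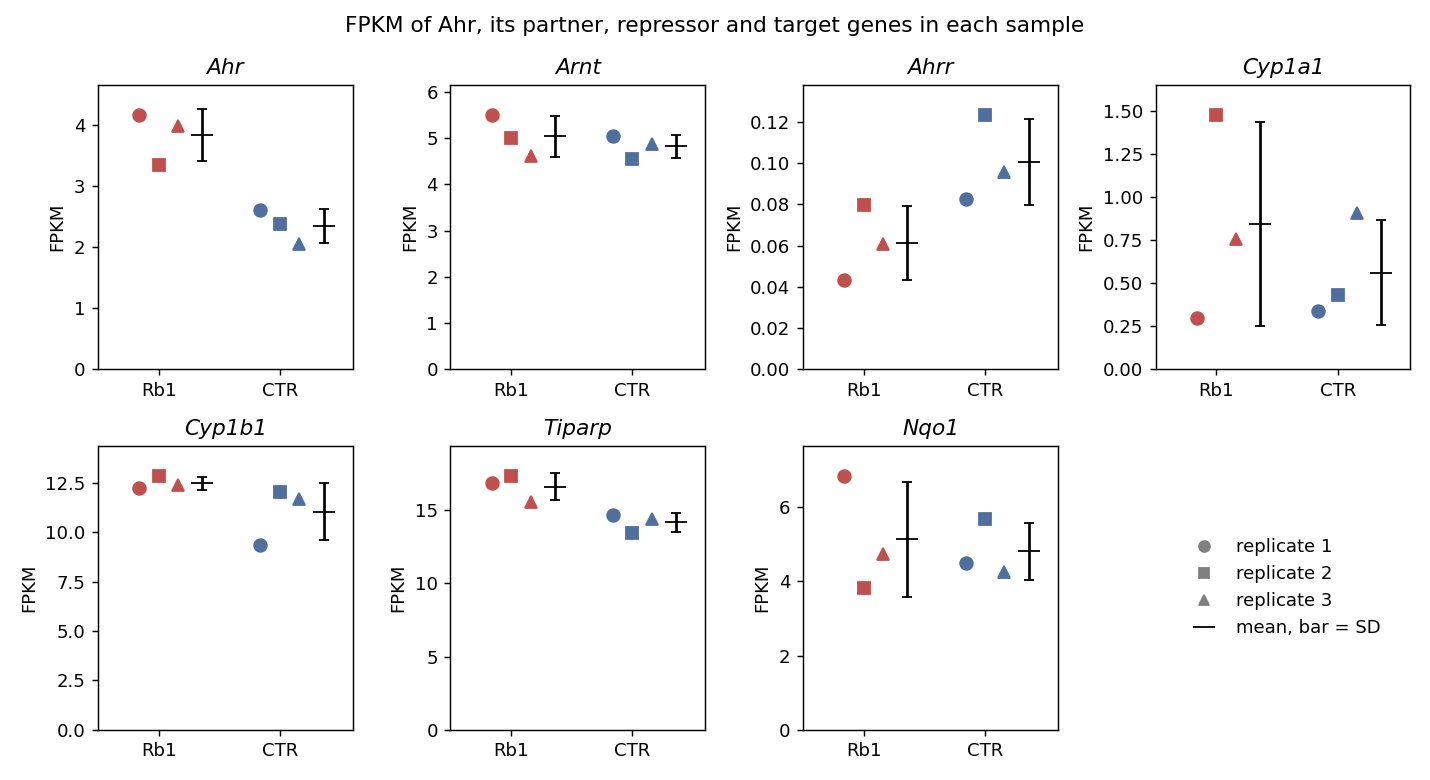
FPKM of the 7 genes in each sample, with Rb1 left of control, replicate numbers as symbols, and the mean with its SD as a black bar. Ahr and Tiparp show separate groups, Cyp1b1 and Ahrr separate narrowly here and overlap after TMM scaling, and Cyp1a1 ranges over 5.02-fold among samples of both groups.

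Ahrr (ENSMUSG00000021575, chromosome 13, 74211118 to 74292331, minus strand), whose product competes with the receptor for Arnt and for XREs, was the least abundant of the 7 in every sample. It had 10, 14 and 17 counts in Rb1 samples, against 18, 33 and 22 counts in control samples. In FPKM these were 0.0434, 0.0796 and 0.0609 with Rb1 and 0.0827, 0.123 and 0.0957 in controls. All Rb1 values lay below all control values, but the nearest pair, Rb1 replicate 2 and control replicate 1, were close, and the groups overlapped once counts were scaled by the trimmed mean of M values (TMM), the scaling used in the test. Values wholly below the controls were found for 10.5% of all tested genes scaled to library totals. The log2 fold change of -0.68 (95% interval -1.57 to 0.21) did not pass (edgeR adjusted p = 0.547). It was -0.50 without control replicate 2, which had the most Ahrr reads, and -0.45 without Rb1 replicate 1, which had the fewest.

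Tiparp (ENSMUSG00000034640, chromosome 3, 65528410 to 65555518, plus strand), a mono-ADP-ribosyltransferase that is induced by the receptor and limits it, was the most abundant of the 7 in every sample. Its FPKM was 16.9, 17.3 and 15.6 in Rb1 samples and 14.7, 13.5 and 14.4 in control samples. The Rb1 values all lay above the control values, also after TMM scaling, with means of 16.6 ± 0.916 FPKM and 14.2 ± 0.626 FPKM (SD, n = 3 each) in Rb1 and control samples. The difference was small, 1.17-fold, with a log2 fold change of 0.27 and a 95% interval of 0.05 to 0.49. It had an unadjusted p of 0.0222 and did not pass over all genes (edgeR adjusted p = 0.340, DESeq2 adjusted p = 0.269). Of the 6 genes other than Ahr it came nearest to the threshold. Tiparp shares 223 exon bases with the pseudogene 4931440P22Rik on the opposite strand.

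Cyp1b1 (ENSMUSG00000024087, chromosome 17, 79701537 to 79715061, minus strand), a monooxygenase of oestrogens and aromatic hydrocarbons, was by FPKM the second most abundant of the 7 in each sample. Its FPKM was 12.2, 12.8 and 12.4 in Rb1 samples and 9.37, 12.0 and 11.7 in control samples. Rb1 values were nearly alike, and control replicate 1 lay below the other 5 samples. The groups did not overlap scaled to library totals and did overlap after TMM scaling. The log2 fold change was 0.22 (95% interval -0.11 to 0.55, edgeR adjusted p = 0.615), and 0.09 without control replicate 1. Wholly higher values were seen for 2 of the 6 genes, Tiparp and Cyp1b1, on the library-total scale, beside the same 5.48% of all genes. On the TMM scale they were seen for Tiparp alone, against 7.73% of all genes, and wholly lower values for none of the 6, against 9.74%.

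Cyp1a1 (ENSMUSG00000032315, chromosome 9, 57687928 to 57703824, plus strand), the monooxygenase used most widely as a readout of receptor activity, was scarce and varied more than any other of the 7. It had 24, 92 and 75 counts in Rb1 samples and 26, 41 and 74 counts in control samples. In FPKM these were 0.294, 1.475 and 0.758 with Rb1 and 0.337, 0.432 and 0.908 in controls, so the lowest and the highest sample were both Rb1 samples. The log2 fold change of 0.63 had a 95% interval of -0.91 to 2.17 (edgeR adjusted p = 0.777). Dropping Rb1 replicate 2 gave -0.06, and dropping Rb1 replicate 1 gave 1.06. Leaving out a control also moved it, to 0.35 without control replicate 1 and 1.19 without control replicate 3. Its coefficient of variation was 70.7% within the Rb1 group and 54.8% within the controls, against 2.59% and 13.1% for Cyp1b1. The interval includes both lower and much higher levels with Rb1, so a difference was not detectable with these samples.

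**Figure D2:**
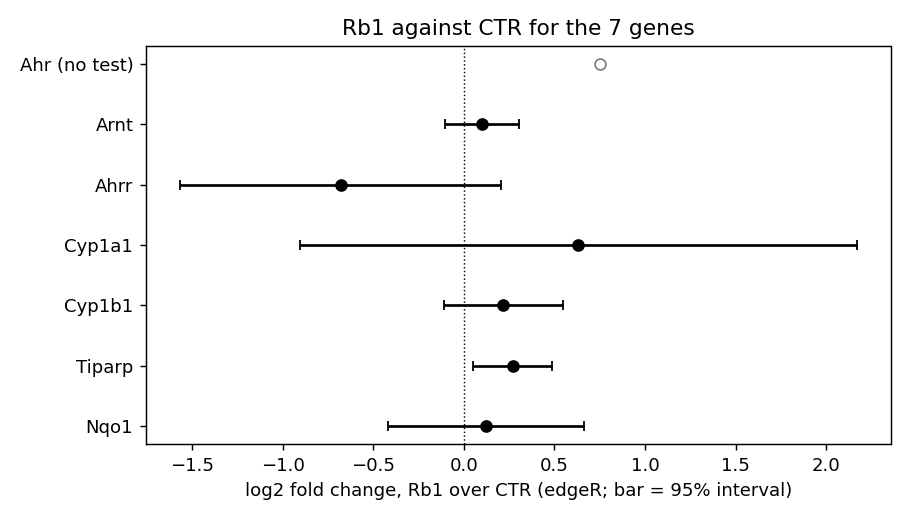
Log2 fold change of Rb1 over control for each of the 7 genes, with the 95% interval from edgeR for the 6 tested genes. Ahr is an open point without an interval because its difference chose the set, at 0.75, and the intervals of all tested genes but Tiparp include 0.

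Nqo1 (ENSMUSG00000003849, chromosome 8, 107388225 to 107403206, minus strand), a quinone reductase induced through the receptor and through the oxidative stress factor NRF2, had overlapping groups. Its FPKM was 6.84, 3.84 and 4.73 in Rb1 samples and 4.51, 5.70 and 4.24 in control samples. Rb1 samples held both the highest and the lowest value. The log2 fold change was 0.12 (95% interval -0.42 to 0.66, edgeR adjusted p = 0.887). It was -0.08 without Rb1 replicate 1, 0.27 without either Rb1 replicate 2 or control replicate 2, and 0.05 without either of the other controls.

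Set beside each other, 0 of the 6 genes other than Ahr passed, 5 had positive and 1 a negative log2 fold change, and their median was 0.17, against 0.01 over all 14093 genes tested, of which 51.3% were positive. DESeq2, fitted without the filter on low counts, also called 0 of the 6. With it 2.72% passed of the 13979 genes that had an adjusted p, and this is the share set beside DESeq2 calls below. An unadjusted edgeR p under 0.05 was seen for 1 of the 6, Tiparp, beside 1628 of all 14093 genes tested. By deposited FPKM the order was Tiparp, Cyp1b1, then Nqo1 and Arnt, then Ahr, Cyp1a1 and Ahrr in every sample. Nqo1 and Arnt changed places between samples, and their means of 5.14 ± 1.55 and 5.04 ± 0.445 FPKM with Rb1 and 4.82 ± 0.773 and 4.83 ± 0.250 FPKM in controls (SD, n = 3 each) did not differ beyond their spread. That near tie rests on the authors' length for Arnt. On annotated exon lengths Arnt stood at 9.05, 8.25 and 7.585 in Rb1 samples and 8.32, 7.51 and 8.02 in control samples, above Nqo1 in all 6. Nqo1 has the same length, 1553 bases, in both. On that scale Arnt also stood above Cyp1b1 in control replicate 1, at 8.32 against 8.23, and the rest of the order was as by FPKM.

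**Figure D3:**
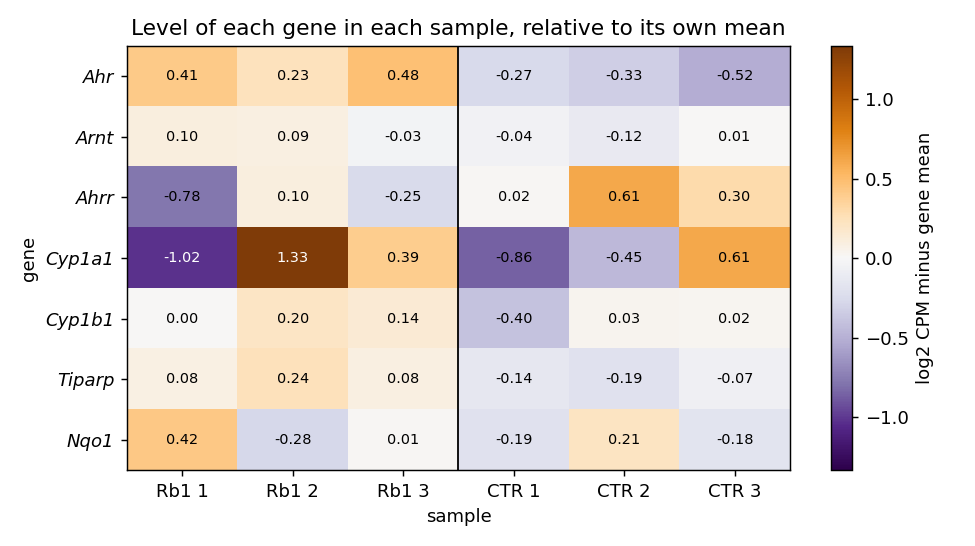
Log2 CPM of each gene in each sample minus the gene's mean over the 6 samples, with Rb1 samples left of the line and controls right of it. Ahr is positive in all Rb1 and negative in all control samples, Tiparp likewise with smaller values, and Cyp1a1 runs from -1.02 to 1.33 within the Rb1 group.

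As a measure of likeness, profiles of log2 CPM over the 6 samples were centred and the root mean square difference from Ahr was taken over 12885 genes. A gene with no variation at all would stand at 0.39 on this measure, so it ranks only the genes nearest to Ahr. These 5 were Slc25a42, a mitochondrial carrier of coenzyme A (0.07), Lipg, endothelial lipase (0.09), Rapgef4, a cAMP-activated exchange factor (0.11), the homeobox gene Hoxb3 (0.12) and Prkar1b, a regulatory subunit of protein kinase A (0.12). Slc25a42 had 4.31, 4.07 and 4.40 FPKM in Rb1 samples and 2.93, 2.64 and 2.29 FPKM in control samples. Since Ahr was chosen for its group difference, genes with a like profile differ between the groups in the same way, and no test applies. Exons of Rapgef4, Hoxb3 and Prkar1b overlap noncoding genes.

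The cytosolic complex that holds the receptor and the factors that act with it in the nucleus had 10 listed genes, all tested, of which 9 had positive log2 fold changes and 0 passed, with a median of 0.13, which was 0.08 without control replicate 1. Ptges3, the co-chaperone p23, had 14.98, 14.5 and 16.6 FPKM in Rb1 samples and 10.5, 13.2 and 13.9 FPKM in control samples, and the groups did not overlap (log2 fold change 0.34, edgeR adjusted p = 0.471). It was the 1 gene of the 10 wholly above the controls on library totals, beside 5.48% of all genes. Src, a kinase held in the complex, had 2.23, 2.44 and 1.90 FPKM with Rb1 and 1.54, 1.96 and 1.61 FPKM in controls, which overlapped (0.40, edgeR adjusted p = 0.415). On the TMM scale the Rb1 values of both Src and Ptges3 lay wholly above the controls, beside 7.73% of all genes. The chaperone Hsp90ab1 (0.24, adjusted p = 0.708) and Ddb1, of the ubiquitin ligase that the receptor joins (0.17, adjusted p = 0.704), also did not pass. Ddb1 shares exon bases with Tkfc.

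Further target genes of the receptor had log2 fold changes of both signs. Of 20 listed, 16 were tested, 5 with positive and 11 with negative log2 fold changes, a median of -0.09, and 0 passed in edgeR. The median was -0.27 without Rb1 replicate 2, -0.18 without control replicate 2 and -0.15 without control replicate 1. Cyp1a2 and Il22 had 0 counts in all samples, which allows up to 0.194 CPM in the shallowest, and Ereg and Gsta1 were too scarce to test. Ugt1a6a, a glucuronosyltransferase, had 1.499, 2.41 and 2.10 FPKM in Rb1 samples and 3.16, 5.05 and 6.70 FPKM in control samples, with no overlap. Its log2 fold change of -1.27 did not pass in edgeR (adjusted p = 0.254) and did in DESeq2 (adjusted p = 0.0127). It was the 1 gene of the 16 that DESeq2 called, beside 2.72% of all genes. Aldh3a1, with few reads, had no adjusted p in DESeq2. Ugt1a6a shares 1311 or more of its 4312 exon bases with each of 8 other Ugt1a genes, so its value is uncertain, and Ugt1a6b from the same cluster was at -0.01.

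Of the other leading members of that list, Slc7a5, an amino acid transporter, had 1.30, 1.32 and 0.957 FPKM in Rb1 samples and 2.05, 1.64 and 1.58 FPKM in control samples (log2 fold change -0.52, edgeR adjusted p = 0.374). Cyp2s1, a cytochrome P450, was scarce, with 0.114, 0.0559 and 0.0822 FPKM in Rb1 samples and 0.3235, 0.147 and 0.143 FPKM in control samples (-1.21, adjusted p = 0.378). Both had groups that did not overlap. On library totals 4 of the 16 tested genes lay wholly below the controls, Ugt1a6a, Slc7a5, Cyp2s1 and Nfe2l2, beside 10.5% of all genes. Nfe2l2, which encodes NRF2, overlapped on the TMM scale. Cyp2s1 shares exon bases with a noncoding gene on the opposite strand.

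Relatives of the receptor in the bHLH-PAS family had 9 of 13 genes tested, 7 with positive log2 fold changes, a median of 0.17 and 0 passing in edgeR. The median was 0.0087 without Rb1 replicate 2, 0.012 without control replicate 1, 0.08 without control replicate 2, 0.11 without Rb1 replicate 1 and 0.28 without Rb1 replicate 3. Epas1, which encodes the hypoxia factor HIF-2α and uses Arnt as partner, was abundant at 277, 161 and 185 FPKM in Rb1 samples and 158, 134 and 161 FPKM in control samples. Its lowest Rb1 and highest control value were equal to 3 digits, without overlap (0.49, edgeR adjusted p = 0.415). Hif1a, whose exons share bases with other genes (-0.18, adjusted p = 0.693) and the clock gene Npas2 (0.55, adjusted p = 0.685) overlapped between groups. Npas4, an activity-induced factor best known from neurons, was near the limit of detection, at 0.0374 to 0.0905 FPKM with Rb1 and 0.182 to 0.830 FPKM in controls (-2.67, edgeR adjusted p = 0.234, DESeq2 adjusted p = 0.0393). Npas4 was the 1 gene of the 9 that DESeq2 called, beside 2.72% of all genes. On library totals 1 of the 9, Epas1, lay wholly above the controls and 1, Npas4, wholly below, beside 5.48% and 10.5% of all genes.

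The kynurenine pathway, which turns tryptophan into ligands of the receptor, was weakly expressed. Of 13 listed genes 8 were tested, 2 with positive and 6 with negative values, a median of -0.36 and 0 passing. The list includes Il4i1, which does not encode an enzyme of this pathway itself. Ido1, the inducible first enzyme, averaged 0.343 ± 0.197 FPKM with Rb1 and 0.230 ± 0.0678 FPKM in controls (SD, n = 3 each) and was too scarce to test. The 4 genes with the smallest p were Kyat3 (0.30), Haao (-0.59), Kmo (-0.38) and Il4i1 (-0.55), with edgeR adjusted p between 0.652 and 0.727. The median was -0.07 without control replicate 2 and -0.17 without Rb1 replicate 1. Most of the exon bases of Il4i1, 3423 of 4080, are shared with Tbc1d17 on the opposite strand, and Kyat3 overlaps a noncoding antisense gene.

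NRF2 target genes, the other class to which Nqo1 belongs, were centred on 0. All 15 were tested, 8 with positive and 7 with negative values, a median of 0.01 and 0 passing in edgeR or DESeq2. The median ran from -0.06 to 0.05 when 1 sample was left out and was negative without Rb1 replicate 1 or control replicate 1. Srxn1, which repairs oxidised peroxiredoxins, had 11.5, 9.50 and 11.3 FPKM in Rb1 samples and 16.9, 14.3 and 12.8 FPKM in control samples without overlap (-0.40, edgeR adjusted p = 0.297). Hmox1, haem oxygenase (-0.27, adjusted p = 0.461), was on the same side, and the glutathione reductase Gsr (0.29, adjusted p = 0.415) and the glutathione transferase Gsta4 (0.85, adjusted p = 0.592) on the other. Srxn1 and Hmox1 were the 2 genes of the 15 wholly below the controls on library totals, beside 10.5% of all genes. On the TMM scale Hmox1 overlapped and Gsr lay wholly above the controls, beside 7.73% of all genes.

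**Figure D4:**
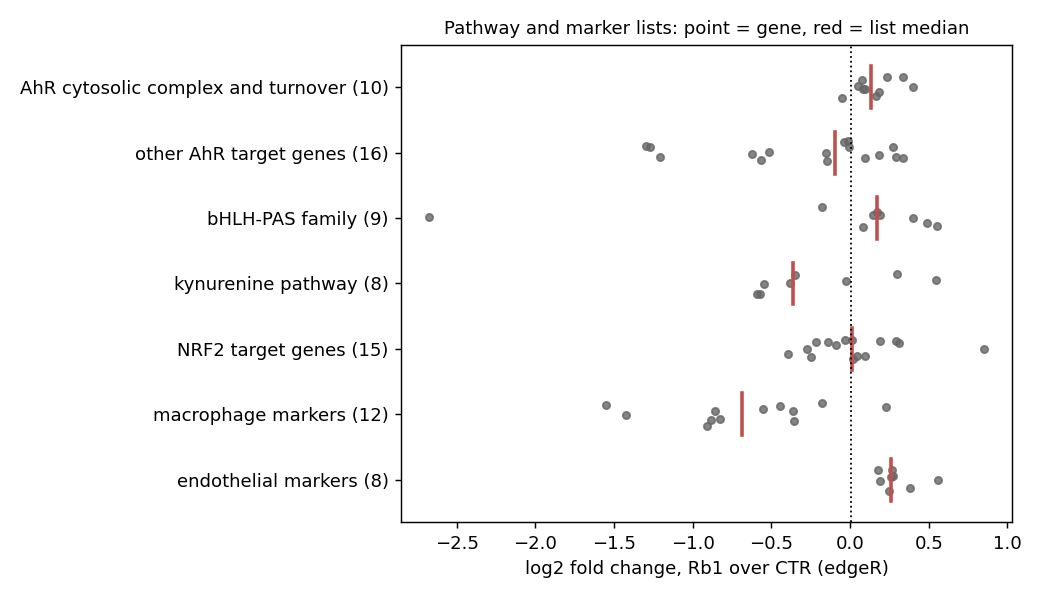
Log2 fold changes of Rb1 over control for the tested genes of 5 pathway lists and 2 marker lists, with the number tested in brackets, each list's median in red and the median of all genes as a dotted line. Medians lie between -0.36 and 0.17 for the pathway lists, against -0.69 for macrophage and 0.26 for endothelial markers.

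Markers of the other cell types of fat were set beside these results, and their part in the levels of Ahr and its targets was not tested. The 12 macrophage markers, all detected in every sample, summed to 1570, 2226 and 2050 CPM in Rb1 samples and 2856, 3114 and 2652 CPM in control samples, without overlap. Of these markers 11 had negative log2 fold changes, 8 lay wholly below the controls on library totals, beside 10.5% of all genes, and Itgam among them overlapped on the TMM scale. None of the 12 passed in edgeR, and 8 had an unadjusted edgeR p under 0.05, beside 1628 of all 14093 genes tested. DESeq2 called 5 of the 12, beside 2.72% of all genes, and the median log2 fold change was -0.69. The 8 endothelial markers summed to 2913, 1664 and 1947 CPM in Rb1 samples and 1906, 1660 and 1847 CPM in control samples, which overlapped, with 8 positive values, a median of 0.26 and 0 passing. Median log2 fold changes were 0.06 for the 10 mature adipocyte markers, -0.01 for the 8 fibroblast and progenitor markers, 0.18 for the 8 smooth muscle and pericyte markers and -0.12 for the 8 T and B cell markers, with 0 passing in edgeR in each list. DESeq2 called 1 of the 10 adipocyte markers, Cfd, which encodes the adipokine adipsin, beside 2.72% of all genes. It called none of the markers in the other 3 of these lists. Cfd averaged 1644 ± 307 FPKM with Rb1 and 868 ± 334 FPKM in controls (SD, n = 3 each), without overlap (log2 fold change 0.96, edgeR adjusted p = 0.322, DESeq2 adjusted p = 0.0495). Adipoq, at 1390 ± 118 FPKM with Rb1 and 1595 ± 79.8 FPKM in controls (SD, n = 3 each), lay wholly below the controls on library totals and overlapped on the TMM scale (-0.16, edgeR adjusted p = 0.729). On library totals Cfd was the 1 adipocyte marker wholly above and Adipoq the 1 wholly below, beside 5.48% and 10.5% of all genes. The endothelial marker Tek and the smooth muscle marker Myh11 also lay wholly above the controls, and the fibroblast marker Lum wholly below. Of the 7 mesothelial markers 3 were at 0 in some sample, and their sums were 5.78 to 6.02 CPM with Rb1 and 2.41 to 6.19 CPM in controls.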

How the data were processed

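RNA of 6 white adipose samples was sequenced. Per the submitters' processing notes, CASAVA 1.8, TopHat2 2.0.6 and the build mm10 were used, while the counter, annotation release, strand setting and filters are not stated. Per the file headers, the deposited table holds raw counts per gene and the authors' FPKM. Dividing counts by FPKM and column totals gave 1 length per gene, with a largest spread of 0.00984% over 13169 genes, so a library in which a few genes take more reads shows lower FPKM elsewhere. Symbols were paired with 21933 of 22040 identifiers, and GENCODE M21 gave coordinates on GRCm38, which is mm10.

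Counts were tested with edgeR 4.0.16 in R 4.3.3 (TMM, the default filter at 10 counts and a total of 15, quasi-likelihood test without covariates) over 14093 genes. P-values were adjusted by Benjamini-Hochberg and called under 0.05. Standard errors and 95% intervals were derived from the F statistic. DESeq2 1.42.0, other size factors, no filter, a replicate block and leaving out each sample were tried, and, after the data were seen, levels per GENCODE exon length. The fitting code was tested on simulated data. Profiles used log2 CPM (prior count 2), and likeness to Ahr was ranked over genes of at least 1 CPM. A count of 0 allows up to 3 counts, which covers counting error only.

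The genes, lists and tests were chosen with earlier results of these data known. Named were the 7 genes, up to 4 genes of each pathway list with the smallest p, and the 5 profiles nearest to Ahr. 1 gene that this rule takes is not reported here. Genes beyond these are named as markers, for a count of 0 or few reads, or as cluster neighbours, after their values were seen. Nothing in the labels ties each sample to its own mouse, so the p-values reflect only the spread among these samples, which may be technical. All pairs of samples differed by more than sampling noise (chi-square per degree of freedom of at least 30.4).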

Additional observations from a re-analysis of the deposited data

How the results depend on the processing

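Arnt, Ahrr, Cyp1b1 and Tiparp kept the sign of their log2 fold change under all 10 alternatives. None of the 6 genes other than Ahr passed the threshold under any of them. Ahr also kept its sign, but it was chosen for its group difference in these samples, so this is no test of it. The sign turned for Cyp1a1 without Rb1 replicate 2 (-0.056) and for Nqo1 without Rb1 replicate 1 (-0.083). When 1 sample was left out, values ran from 0.68 to 0.82 for Ahr, 0.07 to 0.14 for Arnt, -0.92 to -0.45 for Ahrr, -0.06 to 1.19 for Cyp1a1, 0.09 to 0.29 for Cyp1b1, 0.21 to 0.30 for Tiparp and -0.08 to 0.27 for Nqo1. The number of genes called over all genes was 1 in edgeR, 1 to 4 without 1 sample, and 380 with DESeq2 (81 higher and 299 lower), and the cause of the difference between the tools was not tested. Deviations from the group means of same-numbered samples correlated at 0.14, -0.11 and 0.02 across genes, against -0.26 to 0.26 for the other pairs. With 3 samples per group, these correlations cannot show whether the numbers pair the samples. With a replicate block 1 gene was called. On annotated exon lengths, added after seeing the data, the mean ratio of Ahr to Arnt was 0.493 with Rb1 and 0.314 in controls, against 0.764 and 0.486 on the authors' lengths. Its difference between groups follows from the choice of Ahr on either length and is no separate result. With 10 to 33 counts per sample, depth limits what Ahrr can show.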

Other observations

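The samples fell in the same order by Cyp1a1 and by the summed fibroblast and progenitor markers, across both groups. That order was Rb1 replicate 2, control replicate 3, Rb1 replicate 3, control replicate 2, control replicate 1 and Rb1 replicate 1. Cyp1a1 stood at 1.475, 0.758 and 0.294 FPKM in Rb1 replicates 2, 3 and 1, and at 0.908, 0.432 and 0.337 FPKM in control replicates 3, 2 and 1. The 8 markers summed to 3831, 2886 and 1938 CPM in those Rb1 samples and to 3352, 2641 and 2561 CPM in those controls. Of the 8 markers, Dcn and Col15a1 had the highest mean levels, 1333 and 672 CPM, and so weigh most in the sums. The match rests in part on near ties. Rb1 replicate 1 and control replicate 1 had 24 and 26 Cyp1a1 counts, and the marker sums of control replicates 2 and 1 were close. The match was noticed after the values were seen, among 8 marker lists, and was not tested. Nqo1 was ranked beside the same lists and followed the order of none of them. Cyp1b1 did not follow this order across the 6 samples. Its Rb1 samples did, within a narrow range, at 12.8, 12.4 and 12.2 FPKM in replicates 2, 3 and 1. Control replicate 3 (11.7) lay below all Rb1 samples and below control replicate 2 (12.0), and control replicate 1 (9.37) was lowest.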
